A study of Mus musculus with 3 samples.

Results

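The genes described here are 10 regulators of the cell cycle: the cyclin-dependent kinase inhibitors Cdkn1a, Cdkn1b, Cdkn1c, Cdkn2a, Cdkn2b, Cdkn2c and Cdkn2d, the tumour suppressor Trp53, its inhibitor Mdm2, and the D-type cyclin Ccnd1. They were taken by name, and all 10 were present among the 32285 genes of the count matrices. They were read in C57BL/6JRj mouse retina at 3 ages: young animals of 3 months, adult animals of 12 months and old animals of 23 months. Retinal cells had been released enzymatically, pulled out with magnetic beads by the endothelial surface protein CD31, and sequenced singly from transcript 3′ ends in droplets (v3.1 kit). Each age is a single library from a pool of animals, so no difference between ages has a replicate check, and age cannot be told apart from preparation or library. The labels give no other difference between the groups, and no transgene or treatment.

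Cyclin-dependent kinases drive the cell cycle when they are bound by cyclins. D-type cyclins such as cyclin D1, the product of Ccnd1, switch on the kinases CDK4 and CDK6, which phosphorylate the retinoblastoma protein and free E2F factors to start DNA replication. Inhibitors of the INK4 family, encoded by Cdkn2a to Cdkn2d, bind CDK4 and CDK6, whereas those of the CIP/KIP family, encoded by Cdkn1a (p21), Cdkn1b (p27) and Cdkn1c (p57), bind a wider range of kinases. The transcription factor p53, encoded by Trp53, responds to DNA damage and other stress and switches on Cdkn1a among many targets, and Mdm2 is both a p53 target and the ligase that marks p53 for degradation. Stable expression of p21 and of p16Ink4a, 1 of the products of Cdkn2a, is widely used as a sign of cellular senescence, the lasting arrest of damaged cells. In the adult retina the neurons, Müller glia and vessel cells are nearly all out of cycle.

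Cdkn1a, Cdkn2a and Cdkn2c are each transcribed from more than 1 start, and a count of 3′ ends sums over them. The sequences around the starts of Cdkn1a and Cdkn2a, the genes most used as signs of senescence, are shown. On GRCm38, Cdkn1a lies at chr17:29090976-29100727 on the forward strand and its 4 protein-coding transcripts share 234 bases of the last exon. Cdkn2a lies at chr4:89274471-89294653 on the reverse strand, and its 2 coding transcripts share 234 bases of the last exon, so p16Ink4a and p19Arf RNA could not be separated. The sequences come from RefSeq promoters on GRCm38.p6, 250 bases before to 50 bases after each start, and 8 of the 10 genes had 1 or more entries, 11 starts in all. The upstream Cdkn1a start is chr17:29090729-29091028 and the downstream one chr17:29093519-29093818, both on the forward strand. The upstream Cdkn2a start, of the p19Arf transcript, is chr4:89294570-89294869 and the downstream one, of the p16Ink4a transcript, chr4:89282143-89282442, both on the reverse strand. Capitals mark matches, on either strand, to short motifs known from promoters. The GC box, bound by Sp1-type factors, was searched as GGGCGG. The CCAAT box was searched by the letters of its name, and the TATA box, where transcription starts are positioned, as TATAA. The AP-1 site, bound by Fos and Jun proteins, was searched as TGACTCA, and the E2F site as TTTCCCGC. The p53 site was searched by its consensus of paired elements without a gap, with at most 1 mismatch.
Cdkn1a upstream start: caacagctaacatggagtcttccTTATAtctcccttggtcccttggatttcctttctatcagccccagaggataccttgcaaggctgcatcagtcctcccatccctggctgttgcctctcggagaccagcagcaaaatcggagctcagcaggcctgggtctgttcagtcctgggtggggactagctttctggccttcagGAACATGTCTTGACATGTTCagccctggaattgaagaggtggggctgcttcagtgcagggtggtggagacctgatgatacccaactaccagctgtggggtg
Cdkn1a downstream start: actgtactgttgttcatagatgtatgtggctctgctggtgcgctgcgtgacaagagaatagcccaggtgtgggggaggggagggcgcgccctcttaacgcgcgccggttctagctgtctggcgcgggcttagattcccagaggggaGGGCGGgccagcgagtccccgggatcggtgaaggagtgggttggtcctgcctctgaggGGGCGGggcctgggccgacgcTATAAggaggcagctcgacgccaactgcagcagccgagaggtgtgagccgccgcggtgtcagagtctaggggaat
Cdkn2a upstream start: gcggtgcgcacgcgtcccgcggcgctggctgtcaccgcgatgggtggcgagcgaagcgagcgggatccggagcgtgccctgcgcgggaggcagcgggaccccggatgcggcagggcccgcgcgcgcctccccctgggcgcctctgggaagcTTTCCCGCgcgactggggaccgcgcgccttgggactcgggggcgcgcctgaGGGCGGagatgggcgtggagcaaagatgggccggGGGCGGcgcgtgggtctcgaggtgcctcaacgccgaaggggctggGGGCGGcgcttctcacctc
Cdkn2a downstream start: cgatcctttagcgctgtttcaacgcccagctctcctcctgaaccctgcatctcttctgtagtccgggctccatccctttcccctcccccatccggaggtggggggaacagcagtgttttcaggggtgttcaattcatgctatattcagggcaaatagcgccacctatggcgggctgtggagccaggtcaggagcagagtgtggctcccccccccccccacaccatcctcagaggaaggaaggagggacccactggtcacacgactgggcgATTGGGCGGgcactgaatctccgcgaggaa

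The upstream Cdkn1a window held a match to the p53 site with 1 mismatch, starting at position -51 from the first transcribed base, which 29 of 32817 RefSeq promoters (0.0884%) held. The downstream Cdkn1a window held GC boxes at -104 and -46 and a TATA box at -25. The upstream Cdkn2a window held 3 GC boxes and an E2F site at -99, and the downstream one overlapping matches to a CCAAT box and a GC box at 20 and 23 bases after the start. A GC box was found in 35.6% of all promoters, a CCAAT box in 37.4%, a TATA box in 24.9%, an AP-1 site in 5.20% and an E2F site in 1.07%. These matches describe the letters only.

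Of the barcodes deposited, 5363 remained after filtering, 1705, 1957 and 1701 from the young, adult and old library, with a median of 6353, 5964 and 6296 UMIs (unique molecular identifiers, 1 per captured transcript). Clusters of cells were named from marker genes, and the names stand for endothelial-like, pericyte-like cells and so on. Comparisons were limited to classes of 30 or more cells per library: endothelial cells (443, 423 and 404), pericytes (172, 130 and 102), smooth muscle cells (38, 37 and 37), Müller glia (181, 215 and 210), rods (166, 321 and 234), cones (70, 103 and 72) and bipolar cells (200, 207 and 168). The main endothelial, pericyte, Müller, rod and cone clusters each met 7 of 7 markers of their name. The smooth muscle cluster met 5 of 6 smooth muscle markers and 2 of 7 pericyte markers. Droplets with both endothelial and pericyte markers (313, 250 and 222, with medians of 13663, 15030 and 14689 UMIs) were kept out of these classes. The libraries also differed in rarer cells: 1, 7 and 55 retinal pigment epithelium cells, 10, 77 and 57 B cells, and 1, 36 and 0 lens cells.

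Levels are given as CPM, the UMIs of a gene per 1000000 UMIs of the class in that library, always in the order young, adult, old. Statements on the highest or lowest class refer to these 7 classes. A ratio compares the CPM of 2 libraries and carries an exact 95% interval, which covers counting error only, not differences between cells or between animals. It takes every UMI as independent, so it is too narrow where a few cells hold many of a gene's UMIs. Because 3′ tags from different genes are captured unequally, levels were not compared between genes. Of the 70 pairs of a member and a class, 49 had at least 30 UMIs over the 3 libraries and 21 were too sparse to read, 6 of them with 0 UMIs. Cdkn2a was too sparse outside pericytes and smooth muscle cells, Cdkn2b outside endothelial cells and Müller glia, and Cdkn1a outside endothelial cells, pericytes and smooth muscle cells. Cdkn1b, Cdkn2d and Mdm2 could be read in all 7 classes. Cdkn2c was too sparse in smooth muscle cells and cones, Trp53 in smooth muscle cells and rods, Ccnd1 in cones and bipolar cells, and Cdkn1c in bipolar cells. No member was too sparse throughout.

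**Figure D1:**
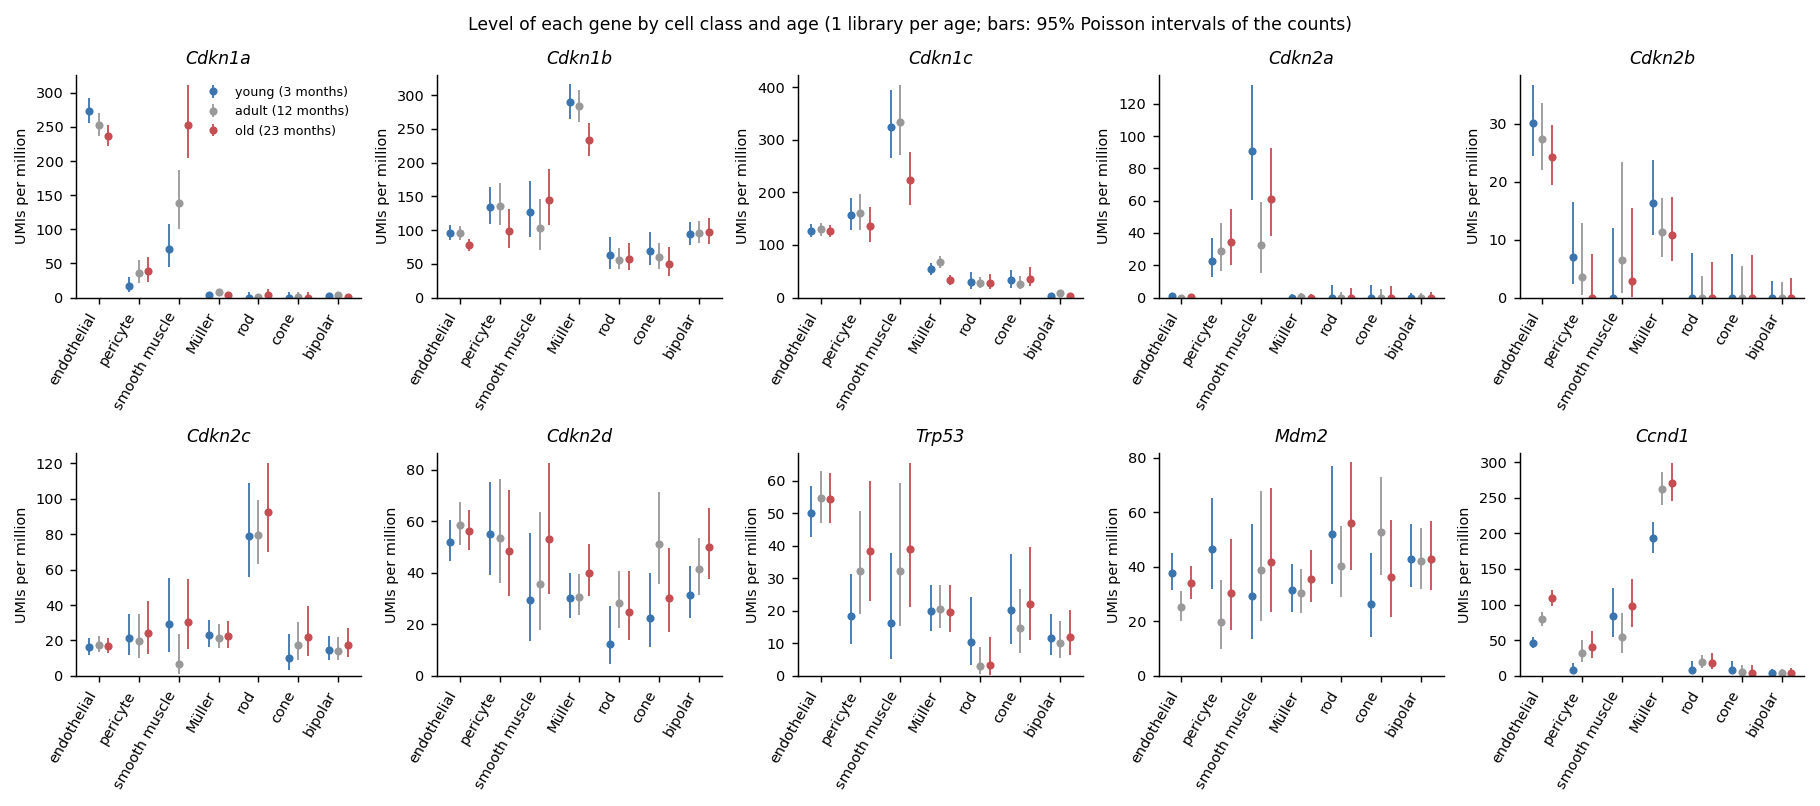
Level of each gene (vertical axis, CPM) in 7 cell classes (horizontal axis) in the young, adult and old library, with 95% Poisson intervals as bars. Levels of Cdkn1a were highest in endothelial and smooth muscle cells, and those of Cdkn2c in rods. Cdkn2a was readable in pericytes and smooth muscle cells, where its levels ran from 22.6 to 91.0 CPM.

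Old and young libraries were compared first, to ask which of these genes differed with age and in which cells. A gene counted as different in a class when it had at least 30 UMIs over both libraries and a ratio of 1.5 or more, or of 0.667 or less. Of 40 pairs with enough UMIs, 6 were higher in the old library: Ccnd1 in endothelial cells, Cdkn1a in smooth muscle cells, Cdkn1a, Trp53 and Cdkn2a in pericytes, and Cdkn2d in bipolar cells. Among all genes of the same classes 7.7% of 45187 pairs were higher by this rule. In 4 of the 40 pairs (10%) the ratio was higher and the interval also excluded 1, against 3.75% of all pairs. The 3 lower pairs were Cdkn1c and Cdkn2b in Müller glia and Mdm2 in pericytes, against 6.16% of all pairs, and 1 of the 40, Cdkn1c, was lower with an interval that excluded 1, against 2.71%. The pairs nearest the limits were Cdkn2a in pericytes (1.53) and Cdkn2b in Müller glia (0.66) inside them, and Cdkn2a (0.67) and Cdkn1c (0.69) in smooth muscle cells outside them.

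By class, 1 of 9 readable members was higher in old endothelial cells and 0 of 9 lower, where 6.29% and 4.35% of all genes were. In smooth muscle cells 1 of 5 was higher and 0 of 5 lower, against 12% and 7.68% of all genes. In Müller glia 0 of 8 were higher and 2 of 8 lower, against 7.19% and 5.39%, and in pericytes 3 of 7 were higher and 1 of 7 lower, against 10.5% and 6.91%. In the adult library 7 of 42 pairs were higher than in the young one, against 6.68% of all pairs, and 3 were lower, against 5.24%. With an interval that excluded 1, 4 of the 42 were higher, against 2.92% of all pairs, and 2 of the 42 lower, against 2.01%. The 7 past 1.5-fold higher were Ccnd1 in endothelial cells, Cdkn1a in smooth muscle cells and pericytes, Trp53 in pericytes, Cdkn2d in rods and cones, and Mdm2 in cones, of which Cdkn1a and Trp53 in pericytes and Cdkn2d in rods had intervals that included 1. The 3 lower were Mdm2 in pericytes, and Cdkn2a and Ccnd1 in smooth muscle cells, the last with an interval that included 1. The adult and the old ratio share the young library, so they are not independent of each other.

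**Figure D2:**
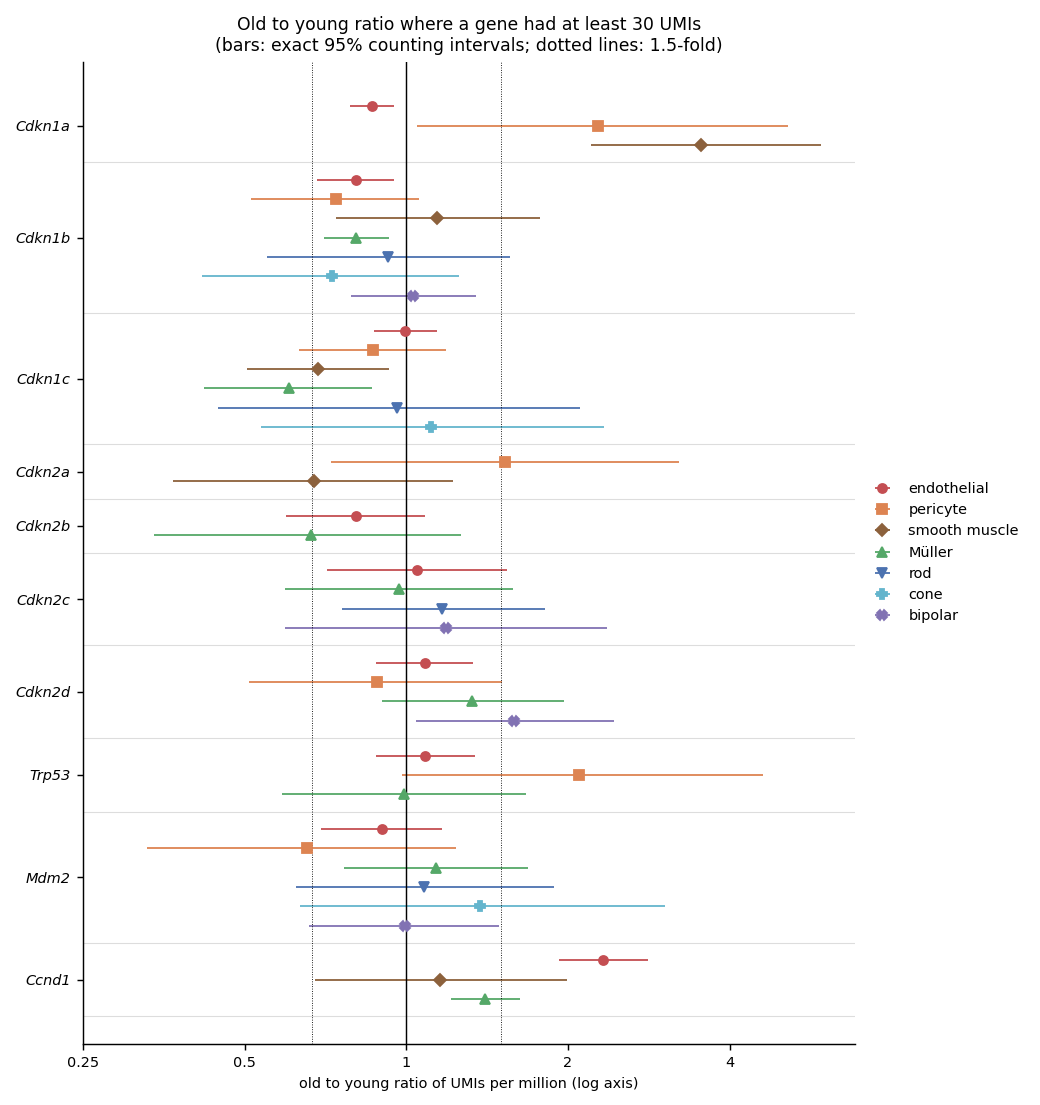
Ratio of the old to the young level (horizontal log axis) for each gene and class with at least 30 UMIs over both libraries, with exact 95% counting intervals, and dotted lines at 1.5-fold. Cdkn1a in smooth muscle cells (3.54) and Ccnd1 in endothelial cells (2.32) lie farthest from 1 among the pairs whose whole interval is above 1.5.

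Cdkn1a, which encodes the p53-induced inhibitor p21, had its highest mean over the libraries in endothelial cells, at 274, 253 and 237 CPM from 885, 844 and 872 UMIs. Smooth muscle cells came next, at 71.5, 139 and 253 CPM, then pericytes at 16.9, 35.7 and 38.5 CPM. The endothelial and smooth muscle ranges over the libraries overlapped, because in the old library the smooth muscle level was above the endothelial one. The smooth muscle and pericyte ranges did not overlap. Rods held 0, 1 and 2 UMIs of Cdkn1a, cones 0, 1 and 0, and bipolar cells 2, 5 and 1. Endothelial cells carried at least 1 Cdkn1a UMI in 67.3, 70.7 and 70.0% of cases (medians of 5642, 6016 and 7588 UMIs per cell), against 0, 0.971 and 0% of cones (medians of 7268, 6642 and 7331). With every cell thinned to 2000 UMIs, in 1 draw for all shares given, the endothelial shares were 37.4, 36.4 and 34.4%.

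In smooth muscle cells, the contractile cells around arterioles, Cdkn1a rested on 22, 43 and 91 UMIs. The old level was 3.54 times the young one (2.20 to 5.93) and the adult level 1.94 times (1.14 to 3.41), so the libraries stood in the order of age. The old ratio ranked 16th among the 3255 genes readable in this class. A Cdkn1a UMI was found in 44.7, 62.2 and 73.0% of the cells, and after thinning in 13.2, 24.3 and 24.3%, or 5, 9 and 9 cells, while the medians per cell were 8083, 8190 and 8490 UMIs. Cells with 3 or more Cdkn1a UMIs numbered 1, 5 and 10. A single old cell held 28 of the 91 UMIs, and leaving out the cell with the most Cdkn1a UMIs in each library gave an old ratio of 2.95.

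Several other genes moved beside Cdkn1a in the smooth muscle class. The 7 pericyte markers summed to 24.5, 25.02 and 11.8% of their level in pericytes, with medians over the markers of 4.19, 3.85 and 6.12%, so sum and median differed in direction. The 7 endothelial markers summed to 0.216, 0.432 and 0.623% of their level in endothelial cells, with 2, 1 and 0 of them at 0. At the endothelial marker share, endothelial RNA would have brought 0.591, 1.10 and 1.48 CPM of Cdkn1a. Of 19 readable genes that respond to tissue dissociation, 9 were above and 1 below the young level with an interval excluding 1, with a median log2 ratio of 0.22 beside 0.08 for all genes of the class. Among these, the stress factor Atf3 stood at 2.39 (1.80 to 3.21) and the cytokine inhibitor Socs3 at 2.13 (1.58 to 2.89), both named after their values were seen. The summed level of that list was 17481, 19473 and 20045 CPM. Against these counts, 8.6% of all genes of the class had an interval above 1 and 4.79% below. The 14 core interferon genes also stood in the order of the libraries, with 28, 106 and 156 UMIs or 91.0, 343 and 434 CPM, though only 2 were readable singly. The part of these markers, of dissociation and of interferon genes in the Cdkn1a result was not tested. Of 9 readable p53 target genes in smooth muscle cells, 0 had an interval that excluded 1. The list had 1 gene past 1.5-fold higher and 0 lower, against 12% and 7.68% of all genes of the class. Its median log2 ratio was 0.15 beside 0.08, and its summed level stood in the order of the libraries, at 2601, 2657 and 2935 CPM.

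In pericytes, the mural cells of capillaries, Cdkn1a counted only 12, 20 and 19 UMIs, a ratio of 2.27 (1.05 to 5.14) for the old and 2.11 (0.98 to 4.74) for the adult library. The young level lay under both others. A UMI was found in 6.98, 10.0 and 9.80% of the cells, and in 1.95, 5.50 and 4.65% after thinning. The endothelial markers in pericytes summed to 4.58, 5.003 and 5.27% of their endothelial level, which would carry 12.5, 12.7 and 12.5 CPM of Cdkn1a from endothelial cells. The smooth muscle markers in pericytes summed to 4.11, 8.06 and 5.77% of their smooth muscle level, and their part in the result was not tested.

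Within endothelial cells the old to young ratio of Cdkn1a was 0.86 (0.79 to 0.95), and it was lower rather than higher in the artery-like subcluster (0.72, 0.57 to 0.92). That subcluster, of 55, 59 and 82 cells, met 6 of 6 artery markers and was led by Gkn3. In the 3 other large subclusters the ratio was 0.87 (0.76 to 1.00), 1.07 (0.85 to 1.33) and 0.85 (0.65 to 1.11). The droplets with endothelial and pericyte markers held Cdkn1a at 171, 173 and 164 CPM, an old ratio of 0.96 (0.86 to 1.07).

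**Figure D3:**
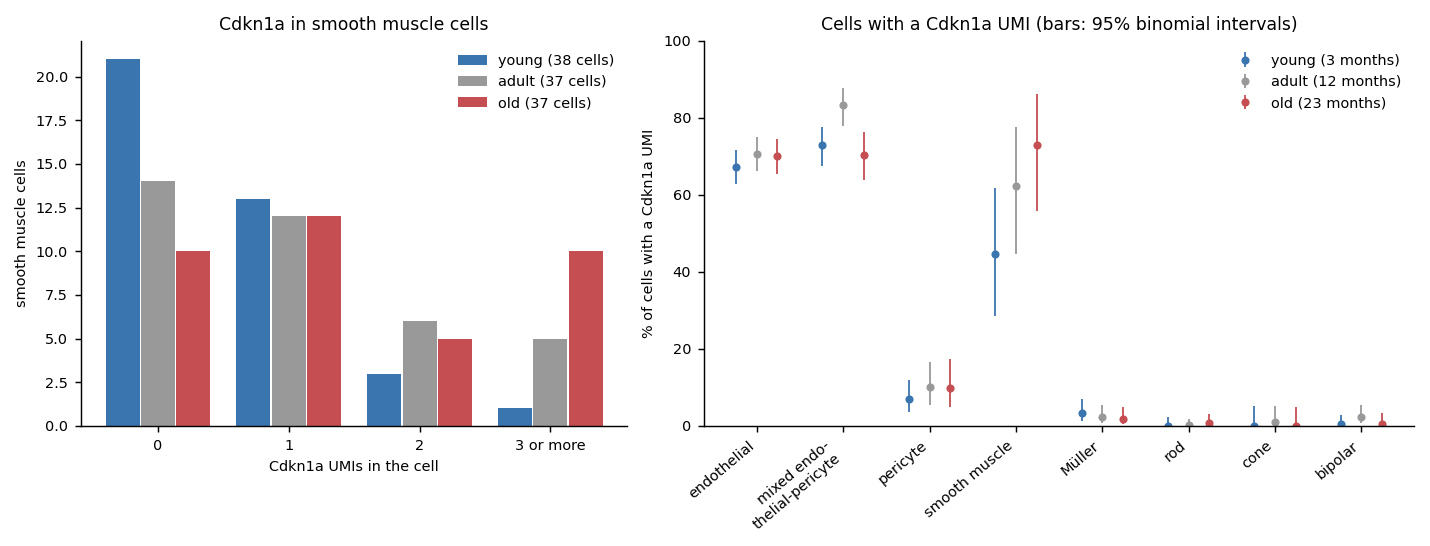
Left, number of smooth muscle cells (vertical axis) by the Cdkn1a UMIs in the cell (horizontal axis) in each library; right, percent of cells with a Cdkn1a UMI by class, with 95% binomial intervals. Cells with 3 or more UMIs numbered 1 young, 5 adult and 10 old, while the endothelial share stayed between 67.3 and 70.7%.

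Cdkn1b, which encodes p27 and holds resting cells out of cycle, was read in every class and was highest in Müller glia, the radial support cells of the retina. Its Müller level was 289, 284 and 234 CPM, from 479, 553 and 367 UMIs. None of the other classes compared reached this range: smooth muscle cells gave 127, 103 and 145 CPM, pericytes 134, 136 and 99.2 CPM, and the 2 overlapped. Bipolar cells (94.4, 96.2 and 97.2 CPM) and endothelial cells (96.3, 95.5 and 77.4 CPM) followed, and cones (69.2, 59.9 and 50.3 CPM) and rods (62.5, 56.4 and 57.8 CPM) were lowest. Endothelial levels overlapped those of bipolar cells, and cones those of rods.

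The old library was the lowest in both Müller glia (ratio 0.81, 0.70 to 0.93) and endothelial cells (0.80, 0.68 to 0.95), and the adult library was not (0.98, 0.87 to 1.11, and 0.99, 0.85 to 1.16). Neither ratio reached the 1.5-fold limit. The share of Müller glia with a Cdkn1b UMI was 81.2, 82.3 and 66.7%, and 43.3, 42.7 and 31.5% after thinning, which set aside 10, 16 and 42 shallow cells. Old Müller glia were less deeply sequenced per cell, with medians of 9166, 9449 and 6782 UMIs. In rods, which had 14.5, 13.1 and 11.1% of cells with a UMI, medians were 2287, 2423 and 2163 UMIs. In endothelial cells the lower old level was most marked in the subcluster led by the pericyte genes Vtn and Abcc9, at 127, 91.5 and 66.6 CPM (0.52, 0.33 to 0.81), and the artery-like subcluster stood at 0.99 (0.65 to 1.52). Pericyte markers in endothelial cells summed to 5.56, 6.30 and 3.90% of their pericyte level (medians over the 7 markers of 1.48, 2.74 and 1.65%, none at 0), and their part in the endothelial Cdkn1b values was not tested.

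Cdkn1c, the imprinted inhibitor p57, was highest in smooth muscle cells, at 325, 333 and 223 CPM from 100, 103 and 80 UMIs. Pericytes followed at 156, 161 and 136 CPM and endothelial cells at 127, 130 and 127 CPM, and none of these ranges overlapped. Müller glia gave 53.8, 67.2 and 32.5 CPM, overlapping cones (32.5, 26.3 and 36.2 CPM), with rods at 29.2, 27.2 and 28.1 CPM and bipolar cells at 2.30, 8.55 and 3.63 CPM. Old Müller glia were below both other libraries, at 0.60 (0.42 to 0.86) of the young level and 0.48 (0.34 to 0.67) of the adult one. The share of Müller glia with a Cdkn1c UMI was 28.2, 30.2 and 15.2%, and 12.3, 7.54 and 3.57% after thinning, beside 8.43, 7.79 and 6.84% of rods (medians of 2287, 2423 and 2163 UMIs). In smooth muscle cells the old ratio was 0.69 (0.50 to 0.93), short of the limit, and in endothelial cells 0.99 (0.87 to 1.14). Of the Müller glia, a cluster of 148, 181 and 162 cells held nearly all Cdkn1c UMIs (88, 126 and 51), and its ratio was 0.62 (0.43 to 0.89). Over 20 thinning draws the old Müller ratio ran from 0.12 to 1.02, past the limit in 16, on a median of 28 UMIs, under the minimum of 30. Rod markers in Müller glia summed to 0.853, 2.49 and 2.03% of their rod level (medians over the 7 markers of 0.875, 2.89 and 1.94%, none at 0), and their part in the Müller values of Cdkn1b, Cdkn1c and Ccnd1 was not tested.

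Cdkn2a was nearly confined to mural cells in the classes compared. Over all kept cells it counted 255 UMIs, of which 109 were in pericytes and smooth muscle cells, 122 in the droplets with endothelial and pericyte markers, 16 in droplets with endothelial and erythroid markers and 8 in every other class together. Smooth muscle cells had 28, 10 and 22 UMIs, or 91.0, 32.3 and 61.3 CPM. Pericytes had 16, 16 and 17 UMIs, or 22.6, 28.6 and 34.4 CPM, a range that overlapped that of smooth muscle cells. Endothelial cells had 3, 0 and 1 UMIs in 3 cells, whose median depth was 16485 UMIs beside 6358 in endothelial cells without. The 0 UMIs of the adult endothelial library allow up to 3 cells with a UMI, or 0.709%, a limit on detection and not on expression.

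A Cdkn2a UMI was found in 34.2, 10.8 and 24.3% of smooth muscle cells, and in 21.1, 5.41 and 8.11% after thinning. The adult library was the lowest in both. In pericytes the shares were 8.72, 9.23 and 12.7%, and 3.90, 4.59 and 4.65% after thinning. Rods, cones and bipolar cells held 0 UMIs in every library, which by the same limit of 3 cells allows a UMI in up to 1.81, 0.935 and 1.28% of rods and 4.29, 2.91 and 4.17% of cones. Rods were shallow, with medians of 2287, 2423 and 2163 UMIs, so expression in them was not bounded. The smooth muscle level in the adult library was 0.36 of the young one (0.15 to 0.75), and the old ratio was 0.67 (0.37 to 1.22). The highest count in a smooth muscle cell was 8, 4 and 10 UMIs, so few cells set these levels. In pericytes the old ratio was 1.53 (0.72 to 3.23), which includes 1 and a wide range on either side.

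**Figure D4:**
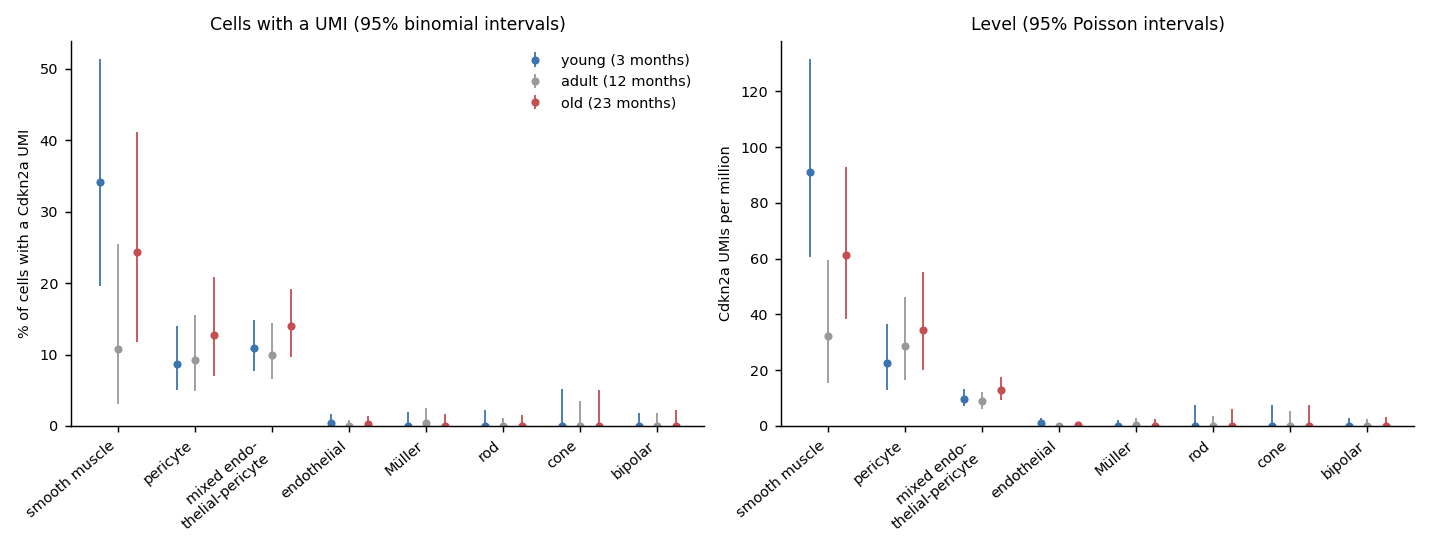
Percent of cells with a Cdkn2a UMI (left, 95% binomial intervals) and Cdkn2a level in CPM (right, 95% Poisson intervals) by class and library. Signal lies in smooth muscle cells, pericytes and droplets with markers of both endothelial cells and pericytes, and rods, cones and bipolar cells hold 0 UMIs.

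Cdkn2b, the neighbour of Cdkn2a and the inhibitor p15, had a different distribution. Endothelial cells held it at 30.03, 27.3 and 24.2 CPM from 97, 91 and 89 UMIs, and Müller glia at 16.3, 11.3 and 10.8 CPM from 27, 22 and 17 UMIs. The endothelial and Müller ranges did not overlap, and pericytes and smooth muscle cells, where Cdkn2a was found, held 7 and 3 Cdkn2b UMIs over all libraries. Rods, cones and bipolar cells held 0 UMIs. The old ratio was 0.81 (0.60 to 1.08) in endothelial cells and 0.66 (0.34 to 1.26) in Müller glia.

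Cdkn2c, which encodes p18, was highest in rods, at 79.2, 79.5 and 92.4 CPM from 38, 79 and 56 UMIs. Every other class stayed between 6.46 and 30.6 CPM, and no library of theirs reached the rod range. Within bipolar cells a cluster of 35, 41 and 32 cells stood higher, at 68.0, 45.8 and 64.8 CPM from 12, 10 and 10 UMIs. The counting intervals of these levels reached into the rod range. The old ratio in rods was 1.17 (0.76 to 1.81) and the adult ratio 1.00 (0.67 to 1.52). A Cdkn2c UMI was found in 20.5, 18.4 and 21.8% of rods and in 11.4, 13.0 and 19.7% after thinning, although rods were the shallowest class compared.

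Cdkn2d, which encodes p19INK4d, varied less between classes: endothelial cells gave 52.0, 58.5 and 56.2 CPM and pericytes 54.97, 53.6 and 48.6 CPM, and these overlapped. Bipolar cells, the relay neurons between photoreceptors and ganglion cells, gave 31.5, 41.3 and 49.96 CPM from 41, 58 and 55 UMIs, an old ratio of 1.59 (1.04 to 2.44). The share of bipolar cells with a UMI was 19.5, 23.2 and 28.6%, and 6.15, 5.94 and 11.8% after thinning. The thinned ratio depended on the draw of UMIs: over 20 draws it ran from 0.70 to 2.53 with a median of 1.70 and was past 1.5 in 13. It was 1.38 (0.75 to 2.56) with 1000 to 6000 genes and 1 to 10% mitochondrial UMIs per cell. The largest bipolar cluster, which met 5 of 5 rod bipolar markers, had 12, 22 and 20 UMIs (1.91, 0.89 to 4.29). In cones the adult library stood above the others, at 22.4, 51.2 and 30.2 CPM (adult ratio 2.29, 1.14 to 4.99), and in rods the levels were 12.5, 28.2 and 24.8 CPM (2.25, 0.92 to 6.66).

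Trp53 was highest in endothelial cells, at 50.2, 54.6 and 54.3 CPM from 162, 182 and 200 UMIs, and none of the other classes compared reached this range. B cells, too few to compare, held it at 89.0, 114 and 89.3 CPM from 4, 36 and 22 UMIs. The endothelial old ratio was 1.08 (0.88 to 1.34). Pericytes gave 18.3, 32.1 and 38.5 CPM, on 13, 18 and 19 UMIs, an old ratio of 2.10 (0.98 to 4.62) that includes 1. Smooth muscle cells held 5, 10 and 14 UMIs, under the minimum. Müller glia were level across the libraries, at 19.9, 20.5 and 19.7 CPM (0.99, 0.59 to 1.67). Rods held 10 UMIs in all, the fewest of the 7 classes.

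Mdm2 was spread more evenly than any other member over neurons, glia and vessels. Rods gave 52.1, 40.3 and 56.1 CPM, bipolar cells 43.0, 42.0 and 42.7 CPM, and Müller glia 31.4, 30.3 and 35.6 CPM, and every class overlapped its neighbour in the order of mean levels. Endothelial cells gave 37.8, 25.2 and 34.0 CPM from 122, 84 and 125 UMIs, with the adult library lowest (0.67, 0.50 to 0.89). Pericytes gave 46.5, 19.6 and 30.4 CPM from 33, 11 and 15 UMIs, again with the adult library lowest (0.42, 0.19 to 0.86), and an old ratio of 0.65 (0.33 to 1.24). In the same pericytes the dissociation response genes summed to 12176, 9941 and 10268 CPM. In the adult library 10 of 19 readable genes were below and 2 above the young level. No share of all pericyte genes is given for that comparison, so these counts have no background here. Old pericytes had genes of this list on both sides, such as Atf3 at 2.96 (1.61 to 5.63) and Fosb at 0.42 (0.36 to 0.49). Rod markers in pericytes summed to 0.323, 0.732 and 0.317% of their rod level. The part of both in the pericyte values of Cdkn1a, Trp53 and Mdm2 was not tested. In cones the adult library was the highest, at 26.4, 52.6 and 36.2 CPM (1.99, 1.03 to 4.09). This cone ratio was 1.27 (0.64 to 2.57) with classes set by each cell's own markers and 1.49 (0.72 to 3.20) without cells that carry markers of other classes, both under 1.5 and with intervals that include 1. Rod markers in cones were also highest in the adult library, at 12.1, 19.9 and 13.4% of their summed rod level (medians over the 7 markers of 5.06, 11.9 and 3.91%, none at 0), and their part in the cone values of Mdm2 and Cdkn2d was not tested.

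Ccnd1 was highest in Müller glia, at 193, 263 and 271 CPM from 320, 512 and 426 UMIs. Smooth muscle cells (84.5, 54.95 and 97.5 CPM) and endothelial cells (46.8, 79.2 and 109 CPM) came next and overlapped, and neither reached the Müller range. In smooth muscle cells the adult library was lowest (17 of 78 UMIs; 0.65, 0.33 to 1.24). Pericytes gave 8.46, 32.1 and 40.5 CPM, rods 8.34, 19.1 and 18.2 CPM, cones 8.14, 5.85 and 4.02 CPM, and bipolar cells 3.84, 4.28 and 4.54 CPM.

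In endothelial cells Ccnd1 counted 151, 264 and 400 UMIs. The old level was 2.32 times the young one (1.92 to 2.82), the adult level 1.70 times (1.38 to 2.08) and the old level 1.37 times the adult one (1.17 to 1.61), so the libraries stood in the order of age. The adult ratio was 1.48 with classes set by each cell's own markers, under 1.5. Over 20 thinning draws it ran from 1.26 to 2.68, past 1.5 in 14, and the old ratio from 1.47 to 2.87, past 1.5 in 19. The old ratio ranked 114th among the 9982 genes readable in this class. The share of endothelial cells with a Ccnd1 UMI was 18.5, 23.6 and 28.0%, and 8.60, 10.6 and 13.0% after thinning, beside 2.50, 2.90 and 2.98% of bipolar cells (medians of 6111, 6581 and 6255 UMIs). Cells with 3 or more Ccnd1 UMIs numbered 11, 27 and 37, and the highest counts in a cell were 19, 15 and 35. Leaving out the highest cell of each library gave an old ratio of 2.43.

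Ccnd1 was highest in artery-like endothelial cells, at 115, 224 and 264 CPM, and these made up 55, 59 and 82 of the endothelial cells. The old ratio within them was 2.30 (1.72 to 3.12). It was 2.02 (1.46 to 2.83) and 2.38 (1.36 to 4.29) in 2 other large subclusters with 0 of 7 pericyte markers. Both met 4 of 4 capillary markers, and the first also 3 of 5 vein markers. The capillary list did not set them apart, since the artery-like subcluster met 3 of 4. The endothelial subcluster led by pericyte genes stood at 31.9, 45.8 and 33.3 CPM from 15, 27 and 17 UMIs (1.04, 0.49 to 2.25). That interval includes 1 but also overlaps those of the subclusters above. In the droplets with endothelial and pericyte markers, which belong to no class compared, the ratio was 2.08 (1.54 to 2.82) in the cluster led by the artery genes Gkn3 and Egfl8 and 1.71 (1.29 to 2.27) in the other.

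Müller markers in endothelial cells summed to 3.51, 4.12 and 5.15% of their Müller level, with a median over the 7 markers of 0.178, 0.137 and 0.437%, and none at 0. Since Ccnd1 was highest in Müller glia, these values stand beside the endothelial result, and their part in it was not tested. Subtracting an estimate of free RNA gave an old ratio of 2.31. The last exon of Ccnd1 overlaps LTO1 on the opposite strand, and whether the counting used strand is not given in the sources used here.

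In Müller glia both older libraries were above the young one, at 1.40 (1.21 to 1.63) and 1.36 (1.18 to 1.57), short of 1.5. The main Müller cluster gave 203, 273 and 282 CPM and the smaller one 100, 151 and 184 CPM, so both stood in the same order. In pericytes Ccnd1 counted 6, 18 and 20 UMIs, a ratio of 4.79 (1.85 to 14.6) on fewer UMIs than the minimum, and of the 20 old UMIs no cell held more than 3.

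**Figure D5:**
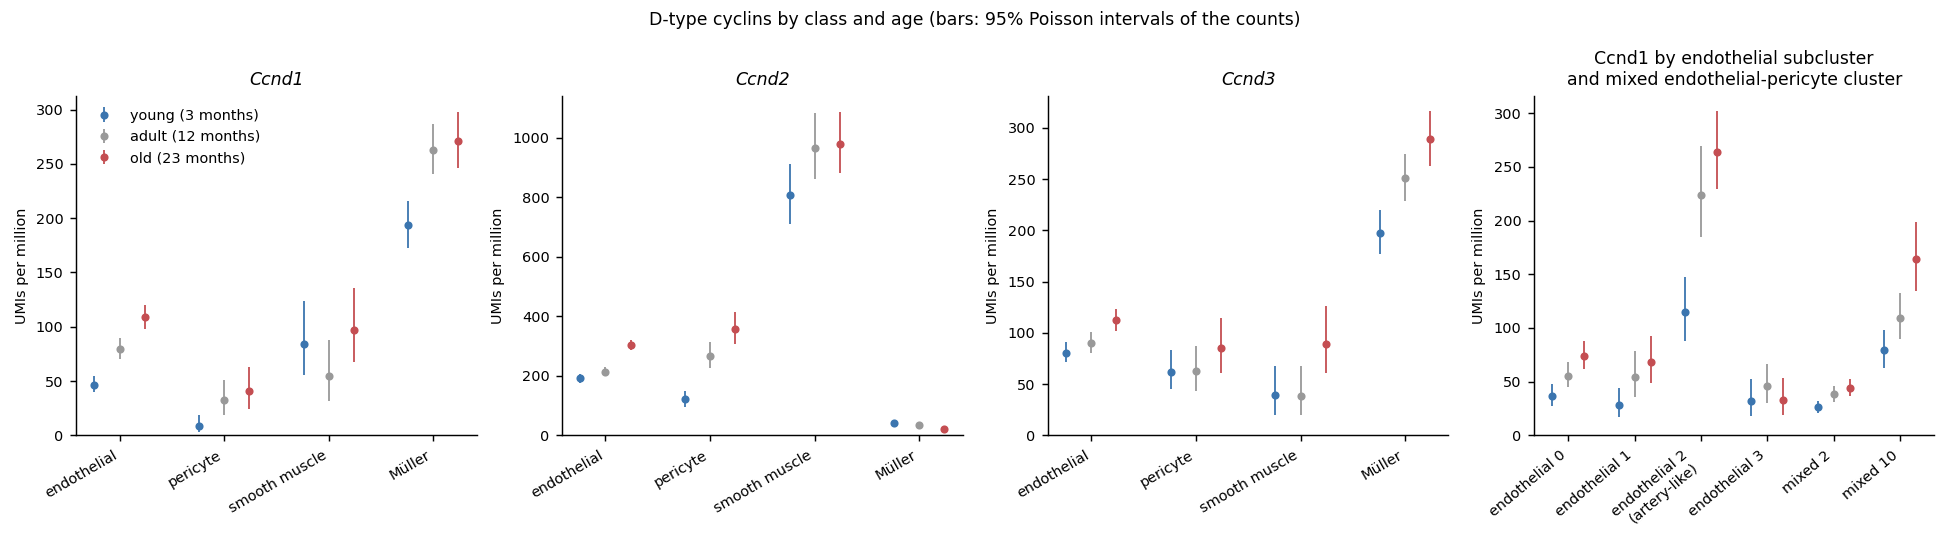
Levels (vertical axes, CPM) of Ccnd1, Ccnd2 and Ccnd3 in 4 classes, and of Ccnd1 in endothelial subclusters and in clusters of droplets with endothelial and pericyte markers, in the young, adult and old library with 95% Poisson intervals. Ccnd1 runs from 46.8 to 109 CPM in endothelial cells, and from 115 to 264 CPM in the artery-like subcluster.

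The other D-type cyclins, which share the kinase partners of cyclin D1, were read in the same way. Ccnd2 was at 192, 213 and 303 CPM in endothelial cells (old ratio 1.58, 1.43 to 1.75) and at 121, 268 and 358 CPM in pericytes (2.96, 2.27 to 3.87). In Müller glia it went the other way, at 39.9, 33.9 and 22.3 CPM (0.56, 0.36 to 0.85). Ccnd3 was at 80.8, 90.1 and 112 CPM in endothelial cells (1.39, 1.19 to 1.63) and at 197, 251 and 289 CPM in Müller glia (1.46, 1.27 to 1.69). The adult ratio of both genes in endothelial cells, 1.11 for Ccnd2 (0.998 to 1.24) and 1.11 for Ccnd3 (0.94 to 1.32), had an interval that included 1, unlike that of Ccnd1. In smooth muscle cells, where these genes were named after their values were seen, the old ratio was 1.22 for Ccnd2 and 2.28 (1.15 to 4.87) for Ccnd3.

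Lists of genes around the members were described by counts, with the median of the log2 ratio beside that of all genes of the class. Of all readable endothelial genes, 11.9% had an interval above 1 and 7.22% below, and in Müller glia 7.18% and 4.47%. In endothelial cells, of 20 CDK and cyclin partners 11 were readable and 3 had an interval above 1 and 0 below, with a median of 0.22 beside 0.03. These were Ccnd2, Ccnd3 and Cdk6, the kinase partner of D-type cyclins, at 4.95 CPM in the young and 14.7 CPM in the old library (2.96, 1.67 to 5.54). Of 17 RB and E2F genes 13 were readable, with 0 intervals above 1 and 1 below, that of Lin52, a subunit of the DREAM complex, at 0.54 (0.31 to 0.92). In Müller glia Lin52 lay on the other side, at 2.04 (1.06 to 4.09), and the CDK and cyclin partners had a median of -0.38 beside 0.03, with 1 of 9 intervals above 1 and 1 below.

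The p53 target genes did not stand on 1 side. In endothelial cells 25 of 34 were readable, with 3 intervals above 1 and 4 below and a median of -0.08. Those above were Phlda3, an AKT inhibitor, at 3.72 and 9.78 CPM in the young and old library (2.63, 1.34 to 5.56), the death receptor Fas at 1.17 (1.00 to 1.37) and Rps27l at 1.11 (1.00 to 1.24). Sesn1, a stress-induced regulator of growth signalling, was at 0.78 (0.66 to 0.93), Rrm2b, a subunit of ribonucleotide reductase, at 0.81 (0.66 to 0.98) and the kinase Plk2 at 0.91 (0.84 to 0.99). The summed level of the list was 2277, 2274 and 2179 CPM in endothelial cells and 2384, 2398 and 2369 CPM in Müller glia. Of 17 readable p53 regulators in endothelial cells, 1 interval was above 1 (Rpl11, 1.10, 1.05 to 1.15) and 1 below (Hipk2, a kinase that acts on p53, 0.69, 0.49 to 0.97).

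In pericytes 14 p53 targets were readable, with 1 interval above 1 and 3 below, where 7.77% and 3.11% of all genes were. Plk2 stood at 16.9 and 46.5 CPM (2.75, 1.31 to 6.07), opposite to its direction in endothelial cells, while the DNA repair genes Xpc (0.49, 0.33 to 0.70) and Polk (0.40, 0.15 to 0.96) and Rrm2b (0.63, 0.39 to 0.99) were lower. In Müller glia 20 were readable, with 1 interval above 1 and 3 below, and Perp, a membrane protein of cell junctions, went from 4 to 30 UMIs (7.90, 2.79 to 30.9). Abhd4 (0.67, 0.49 to 0.92), Rrm2b (0.69, 0.49 to 0.98) and Rps27l (0.75, 0.62 to 0.89) were lower there. Rrm2b was thus below 1 in all 3 of these classes.

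Proliferation genes were sparse: 9 of 22 were readable in endothelial cells, with 0 intervals excluding 1 and a median of 0.09. In Müller glia 5 were readable, with Stmn1 at 1.25 (1.12 to 1.40) and Hmgb2 at 0.63 (0.45 to 0.88). Dissociation response genes lay on both sides in endothelial cells, with 12 of 20 intervals above 1 and 6 below, and their summed level was 13715, 14086 and 13623 CPM. Socs3 (1.55, 1.34 to 1.78), Ier3 (1.41, 1.32 to 1.51) and Dusp1 (1.34, 1.25 to 1.44) were highest, and Hspa1b (0.31, 0.28 to 0.35), Fosb (0.51, 0.48 to 0.54) and Hspa1a (0.61, 0.56 to 0.66) lowest. A reference list of 14 core interferon genes had 14 of 14 endothelial intervals above 1, with a median of 0.97.

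Endothelial cells in which a Cdkn1a UMI was found after thinning, 161, 145 and 138 cells, were set beside those without, as a description within each library. Summed p53 target levels were 1.11 (1.01 to 1.22), 1.14 (1.04 to 1.26) and 1.08 (0.98 to 1.19) times as high in cells with a UMI, and the summed other members 1.10 (0.89 to 1.34), 1.23 (1.00 to 1.51) and 1.26 (1.03 to 1.54) times. Dissociation response genes stood at 1.18 (1.14 to 1.23), 1.18 (1.14 to 1.23) and 1.03 (0.99 to 1.07), but Btg2 is on both lists. Without Btg2 the p53 target ratio was 1.00 (0.89 to 1.12), 1.07 (0.95 to 1.20) and 1.08 (0.96 to 1.22), with intervals that include 1, and the dissociation ratio 1.17 (1.13 to 1.22), 1.17 (1.13 to 1.22) and 1.03 (0.99 to 1.07). Core interferon genes stood at 0.88 (0.79 to 0.98), 1.11 (1.00 to 1.23) and 0.92 (0.85 to 1.00), and proliferation genes at 1.06, 1.03 and 1.04. A UMI in a sparse count marks only part of the cells that express the gene.

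Patterns over the 7 classes and 3 libraries (21 points of log2(CPM + 10), in which the libraries of 1 class are alike) were compared with those of 4172 other genes by Pearson's r, as a description. Closest to Cdkn1a were Tgm2, Lims2 and Trim47 (r = 0.98 each), closest to Cdkn2a were Olfr558 (0.99), Gm10687 and Aoc3 (0.98 each), and closest to Ccnd1 were Tmem176b (0.98), Cav1 and Ccn1 (0.95 each). Cdkn1b was closest to Rcn2 (0.95), Mir99ahg and Ptpra (0.92 each), and Cdkn1c to Actb, Tprgl (0.95 each) and Tspan12 (0.94). Cdkn2c was closest to D1Ertd622e (0.91), Polg2 and Galnt7 (0.88 each), and Trp53 to Ppp1r2 (0.91), Ssr4 (0.90) and Ccny (0.89). Likeness was weaker for Cdkn2d, with Akap13 (0.82), Eif4g1 (0.81) and Rnf130 (0.80), and for Mdm2, with Gorasp2 (0.74), Syncrip (0.70) and Fam126b (0.68).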

How the data were processed

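Single cells of CD31-enriched retina were counted with the 3′ kit at 3 ages. The authors deposited raw counts of UMIs per gene and barcode, made with Cell Ranger 6.1.2 on mm10 per the submitters' processing notes; other settings are not given in the sources used here. Barcodes with 500 to 6000 genes and 1 to 20% mitochondrial UMIs were kept, the study's limits. Scrublet in scanpy 1.11.5 (Python 3.11.15) called 8, 17 and 12 doublets, which were left out, a low share of under 1% per library. Barcode strings shared by 2 libraries numbered 0, 0 and 2. Cells were integrated and clustered in Seurat 5.3.0 (R 4.3.3; 2000 features, 30 components, resolution 0.5) with the listed genes kept out of the features, and named from 3 or more markers. The members, lists and markers were chosen with earlier results of these data known. Counts were summed per class and library and put over the class total. With 1 library per age there was no test. Intervals were exact (Poisson, conditional for ratios, Clopper-Pearson for shares, scipy 1.17.1). PCR and preparation are not covered, nor, for levels and ratios, differences between cells. Besides the members, the text names up to 3 genes a list with the highest and 3 with the lowest ratio among intervals excluding 1 in endothelial cells, pericytes and Müller glia, and the 3 genes most like each member with at least 50 CPM in a class, among genes with at least 100 CPM. Gene positions are from GENCODE M21 on GRCm38. The scripts were tested on simulated data.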

Additional observations from a re-analysis of the deposited data

Results flagged for a closer look

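Some members moved in opposite directions in different classes, or moved in cells outside the classes compared; none of these differences was tested, since each age has 1 library. The old to young ratio of Cdkn1a was 2.27 in pericytes and 3.54 in smooth muscle cells but 0.86 in endothelial cells, and the 3 intervals excluded 1. The adult to young ratio of Mdm2 was 1.99 in cones but 0.67 in endothelial cells and 0.42 in pericytes, again with intervals that excluded 1. The cone value fell to 1.27 with classes set by each cell's own markers and to 1.49 without cells that carry markers of other classes, with intervals that then included 1.

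Ccnd1 was also higher in some cells that belong to no class compared, named here because their interval lay above 1. Its old to young ratio was 1.78 (1.45 to 2.19) in the droplets with endothelial and pericyte markers, where the adult ratio was 1.502, and 2.02 (1.17 to 3.55) in the droplets with endothelial and erythroid markers. In the unnamed cluster of low UMI counts that carries endothelial markers the old ratio was 3.79 (1.303 to 15.04), from 4 and 24 UMIs, under the minimum of 30. In amacrine cells, of which the libraries held 18, 17 and 16, the adult ratio was 18.4 (2.94 to 761), from 1, 20 and 7 UMIs, also under that minimum. Droplets with T or NK cell and microglia markers went the other way, from 71.0 CPM in the young to 17.9 CPM in the old library. They held 21 Ccnd1 UMIs in all. In the droplets with endothelial and erythroid markers the adult level was the lowest, at 46.0 CPM. Droplets with endothelial markers hold endothelial RNA, so they may repeat the endothelial result.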

How the results depend on the processing

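The counts of members past 1.5-fold moved with the minimum of UMIs, the limits on cells, thinning, scaling and the setting of classes. With a minimum of 100 UMIs the old library had 2 higher and 1 lower of 20 pairs, against 3.05% and 1.88% of all pairs, and the adult library 1 and 0 of 20, against 2.15% and 1.26%. With no minimum these were 13 and 8 of 60, against 22% and 21.1%, and 14 and 7 of 60, against 21.6% and 19.5%. Under stricter limits (1000 to 6000 genes, 1 to 10% mitochondrial) 1 of 26 pairs was higher in the old (8.42% of all pairs) and 1 of 27 in the adult library (6.83%); smooth muscle cells and cones, under 30 cells in a library, then gave no value. Thinning every cell to 2000 UMIs gave 3 higher of 18 pairs in the old library (9.26% of all pairs), and 2 higher and 1 lower of 20 in the adult one (8.38% and 6.3%), in 1 draw; over 20 other draws the old library had 0 to 3 higher and 0 to 3 lower pairs and the adult one 0 to 4 and 0 to 2. TMM and median-of-ratios scaling each gave 5 lower of 40 pairs in the old library (6.95% and 6.94% of all pairs). For the adult library, classes set by each cell's own markers gave 3 higher of 38 pairs (6.54% of all pairs), leaving out cells with markers of other classes gave 4 of 38 (6.5%), and averaging the CPM of single cells gave 5 lower of 42 (7.24%). Where no cause is given, it was not tested. Of 82 ratios, recomputed 1018 times in all, 1008 values stayed within their counting interval and 10 moved outside it, all under thinning. Of the ratios past 1.5-fold, 0 reversed direction, with thinning counted as 1 draw. Over the 20 draws some of them did cross 1, such as Cdkn2a in old pericytes (0.36 to 2.69) and Cdkn2d in old bipolar cells (0.70 to 2.53). A change of the UMI minimum alone leaves a ratio as it is, so those values, also in the counts below, could not move. Ccnd1 in endothelial cells stayed past 1.5-fold in the old library under all 14 alternatives (1.83 to 2.43). Cdkn1a in smooth muscle cells did so under all 12 that gave a value (2.95 to 3.64) and Cdkn1c in Müller glia under all 14 (0.51 to 0.66), each with 1 thinning draw or none. Over the 20 draws they were past it in 19, 20 and 16. The median UMIs over both libraries were then 104.5, 22 and 28, the last 2 under the minimum of 30. Cdkn2a in pericytes did so under 6 of 11, Mdm2 in pericytes under 9 of 12, Cdkn2b in Müller glia under 10 of 12 and Cdkn2d in bipolar cells under 11 of 13, which counts the same 1 draw. For the adult library, Ccnd1 in endothelial cells stayed past 1.5-fold under 12 of 14 (1.38 to 1.87; not with own-marker classes or that 1 thinning draw) and Mdm2 in cones under 9 of 11 (1.27 to 2.22; not with own-marker classes or without cells carrying other classes' markers). Leaving out the cell with the most UMIs of a member, and repeating the thinning, were alternatives chosen after seeing the data. No paired analysis was possible because each age has 1 library, so the ages share no more than 1 replicate number.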

Other observations

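Members were also counted in cells kept out of the comparisons, for their small number or their mixed markers. In B cells Cdkn1b was at 267, 155 and 114 CPM, from 12, 49 and 28 UMIs, an old to young ratio of 0.43 (0.21 to 0.92). The young B cells numbered 10, and endothelial markers in B cells summed to 5.08, 0.802 and 0.853% and pericyte markers to 1.90, 0.0900 and 0.123% of their level in their own class; the part of this RNA was not tested. In droplets with T or NK cell and microglia markers it was at 142, 181 and 242 CPM, from 10, 50 and 27 UMIs (1.70, 0.80 to 3.94). In droplets with endothelial and pericyte markers, Cdkn1b was at 0.82 (0.71 to 0.94) of the young level in the old library, and Cdkn1c (0.95), Cdkn2c (0.88), Cdkn2d (1.09), Trp53 (0.90) and Mdm2 (1.10) had intervals that included 1. Cdkn2a counted 44, 34 and 44 UMIs in these droplets, a ratio of 1.33 (0.86 to 2.07). Retinal pigment epithelium cells held Ccnd1 at 158 CPM in the old library, from 42 UMIs in 55 cells.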
